A study of Mus musculus with 5 samples.

Results

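The genes described here encode fibroblast growth factor (FGF) receptors, Fgfr1, Fgfr2 and Fgfr3, and 7 genes of the feedback that follows receptor activation: Dusp6, Spry1, Spry2, Spry4, Spred1, Spred2 and Etv4. They were taken as the probe sets annotated to one of these 10 symbols alone, which gave 18 of the 20380 probe sets with a single symbol, and 10 of 12393 genes. A gene with several was read from the brightest of them, by mean log2(signal + 16) over all arrays. The RNA came from whole C57BL6J mouse embryos of gestation day 9.5 and was hybridised to Affymetrix Mouse Genome 430A arrays, 3 of them labelled Folr1+/+ (wild type) and 2 Folr1-/- (lacking the folate receptor gene Folr1). The Folr1-/- embryos came from Folr1+/- parents, and their dams ate a folate-supplemented diet from before mating to collection. Whether the dams of the Folr1+/+ embryos ate the same diet is not stated, and if not, the effects of diet and genotype cannot be told apart. The labels do not say whether an array holds one embryo or a pool, and p-values measure the spread between these arrays only. Signals are listed in the order of the replicate numbers.

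FGFs bind receptor tyrosine kinases at the cell surface together with heparan sulphate, and the active receptor signals through RAS to the kinase ERK. ERK activates ETS transcription factors, and transcription then rises for genes that damp the signal: Dusp6 encodes a phosphatase of ERK, and the Sprouty and Spred genes encode inhibitors that act between the receptor and RAF. Transcripts of such feedback genes are widely used as a readout of FGF activity in the embryo, where FGFs pattern the midbrain-hindbrain boundary, the limb bud, the pharyngeal arches and the tail bud.

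Several facts of the arrays touch every value below. The signal of Folr1 was 57.0, 50.01 and 40.2 on the Folr1+/+ arrays and 50.2 and 41.8 on the Folr1-/- arrays, so the genotype has no check from this transcript and directions rest on the labels. Xist was 25.0 to 35.7 in the Folr1+/+ arrays and 419 and 770.4 in the Folr1-/- arrays. The Y-linked Eif2s3y was 300.3 to 372 against 104 and 3.13, and Kdm5d 89.5 to 120.5 against 25.2 and 0.796. Sex signals thus differ with the labels, and the effects of sex and genotype cannot be told apart. Folr1-/- replicate 1 had signal of Xist and of both Y-linked genes, and whether it holds RNA of both sexes was not tested. The Actb 3'/5' signal ratio rises with shortened RNA and with amplification in 2 rounds, used here, which favours 3' ends. It ran from 21.1 to 39.5 in the Folr1+/+ arrays, highest in replicate 2, and was 30.5 and 22.8 in the Folr1-/- arrays. The share of each source was not tested. Tissue markers differed as well. The summed signal of 19 visceral endoderm and yolk sac markers was 3348 to 4476 in the Folr1+/+ arrays and 20167 to 20555 in the Folr1-/- arrays, and all 19 rose. The sum of 16 surface and gut epithelium markers was 2783 to 3677 against 8191 to 8905, where 10 of 13 tested rose and 1, Trp63, fell. The largest part of this sum was Krt8, at 776 to 1127 against 3109 and 3173. Below the filter, Krt14 was lower on both Folr1-/- arrays, and Krt5 and Cldn3 overlapped. The sum of 15 neural progenitor markers was 1822 to 1984 against 466 to 557, where 9 of 11 tested fell, and that of 12 somite markers was 955 to 1099 against 429 to 448, where 5 of 6 tested fell. These RNAs come from whole embryos, so fewer cells of a type and less RNA per cell cannot be told apart.

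Of the 10 genes, 8 were bright enough to be tested and 2, Spry4 and Etv4, were not. Fgfr3 rose and Fgfr2 fell in the arrays labelled Folr1-/-, and the other 6 tested genes, among them Fgfr1 and the 5 feedback genes, did not pass the threshold of an adjusted p of 0.05. That is 2 of 8, beside 15.0% of all 7436 genes tested. By direction it is 1 higher beside 8.19% of all genes, and 1 lower beside 6.79%. With each array centred on its median signal, the changed genes of the whole table split into 769 higher and 341 lower in place of 609 and 505, and the calls of Fgfr2 and Fgfr3 stood. The median log2 fold change of the 8 genes was -0.081, against -0.020 for all tested genes. The groups did not overlap in 3 of the 8, Fgfr2, Fgfr3 and Dusp6, beside 46.7% of all tested genes. By direction, Fgfr3 was higher beside 22.5% of all genes, and Fgfr2 and Dusp6 were lower beside 24.2%.

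**Figure D1:**
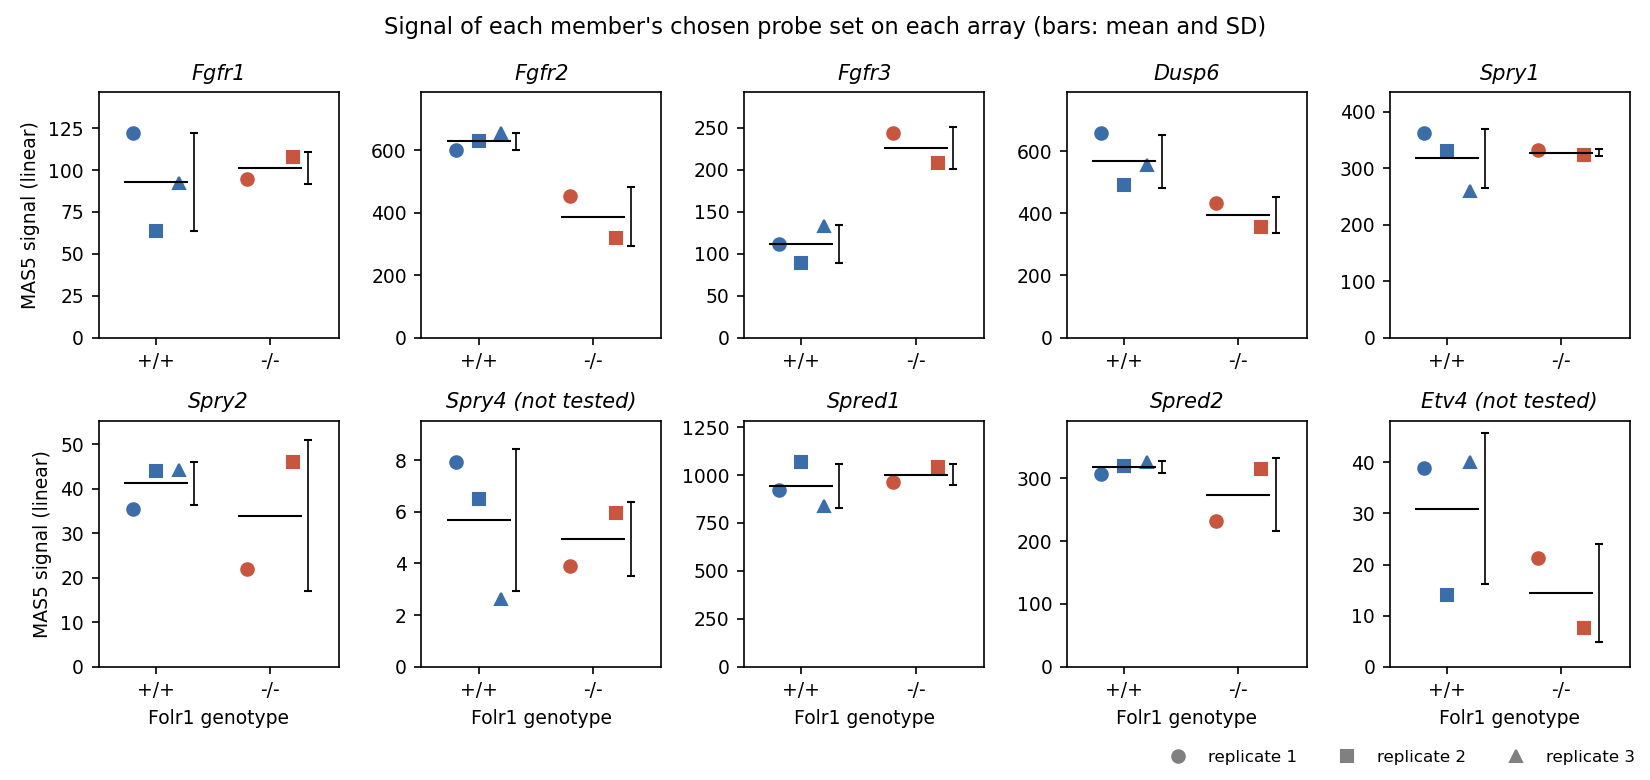
MAS5 signal (linear axis from 0) of the chosen probe set of each of the 10 genes on each array, with Folr1+/+ in blue, Folr1-/- in red and a marker shape per replicate number; lines are means and bars SDs (n = 3 and n = 2). Fgfr3 is higher and Fgfr2 and Dusp6 are lower on both Folr1-/- arrays than on any Folr1+/+ array, while in the other genes the groups overlap.

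Fgfr3 encodes a receptor best known for restraining growth of cartilage, and it is also made in neural tissue and gut epithelium of the embryo. Its signal was 111, 88.4 and 134 on the Folr1+/+ arrays and 244 and 209 on the Folr1-/- arrays. Both Folr1-/- arrays lay above all Folr1+/+ arrays, at 220% (replicate 1) and 188% (replicate 2) of the Folr1+/+ mean. The group means were 111 ± 22.6 (SD, n = 3) and 226 ± 24.9 (SD, n = 2), a log2 fold change of 0.94 ± 0.19 (SE, limma adjusted p = 0.00672). The 95% interval ran from 0.52 to 1.36. The endoderm and epithelium markers were higher and the neural progenitor and somite markers lower on the same arrays. The part of these markers in this difference was not tested. The call was lost without Folr1-/- replicate 1 (0.84, adjusted p = 0.102) and with the mean of the gene's probe sets (0.50, adjusted p = 0.178), over a range of 0.00184 to 0.178 in all 18 alternatives. The second Fgfr3 probe set was dim, with signals of 2.84, 13.7 and 14.5 against 22.5 and 2.40, and its groups overlapped.

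Fgfr2 encodes a receptor whose splice forms serve epithelia or mesenchyme, and which limb and lung outgrowth requires. The chosen probe set gave 601, 629 and 655 on the Folr1+/+ arrays and 453 and 320.1 on the Folr1-/- arrays. The Folr1+/+ arrays lay close together, and both Folr1-/- arrays were lower, at 72.1% (replicate 1) and 50.9% (replicate 2) of the Folr1+/+ mean. Means of 629 ± 26.8 (SD, n = 3) and 387 ± 94.0 (SD, n = 2) gave a log2 fold change of -0.70 ± 0.17 (SE, limma adjusted p = 0.0164) and a 95% interval from -1.07 to -0.33. The name of this probe set ends in s_at, the maker's mark for probes that match several transcripts. Splice forms, and any further transcripts matched, therefore cannot be told apart here. The chosen Fgfr1 probe set and the dimmer Spred1 probe sets carry the same mark. The call was lost without Folr1-/- replicate 2 (-0.46, adjusted p = 0.149) and without Folr1+/+ replicate 3 (-0.67, adjusted p = 0.0694), and also with the mean of the gene's probe sets (-0.38, adjusted p = 0.176) and in a fit of every probe set (adjusted p = 0.0582), over a range of 0.00946 to 0.176. The other Fgfr2 probe set had signals of 28.6, 48.1 and 30.2 against 39.3 and 27.4, which overlap. On the Folr1-/- arrays the endoderm and epithelium markers were higher and the neural progenitor and somite markers lower, and their part was not tested.

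Fgfr1, the receptor that mesoderm needs to leave the primitive streak, had signals of 122, 63.9 and 92.1 on the Folr1+/+ arrays and 94.4 and 108 on the Folr1-/- arrays. Both Folr1-/- arrays lay inside the range of the Folr1+/+ arrays. The log2 fold change was 0.14 ± 0.23 (SE, adjusted p = 0.721), and its 95% interval from -0.36 to 0.64 does not exclude a change in either direction. A dimmer Fgfr1 probe set gave 25.9, 16.3 and 24.3 against 15.9 and 14.6, where the Folr1-/- arrays were the lowest (log2 fold change -0.28 ± 0.22, SE). The 2 probe sets of Fgfr1 thus had opposite signs, and neither passed in a fit of all 22626 probe sets (adjusted p = 0.803 and 0.543), where 4.06% passed and the groups did not overlap in 38.0%.

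The opposite changes of Fgfr3 and Fgfr2 can be set against each other within an array, which takes out the scaling of whole arrays. The log2 ratio of Fgfr3 to Fgfr2 signal was -2.43, -2.83 and -2.29 on the Folr1+/+ arrays and -0.89 and -0.62 on the Folr1-/- arrays. The ratio was higher on both Folr1-/- arrays, by 1.76 on the log2 scale between the group means. This pair was chosen after its values were seen, so the ratio carries no test, and it shows unequal change of the 2 transcripts and not the size of either.

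**Figure D2:**
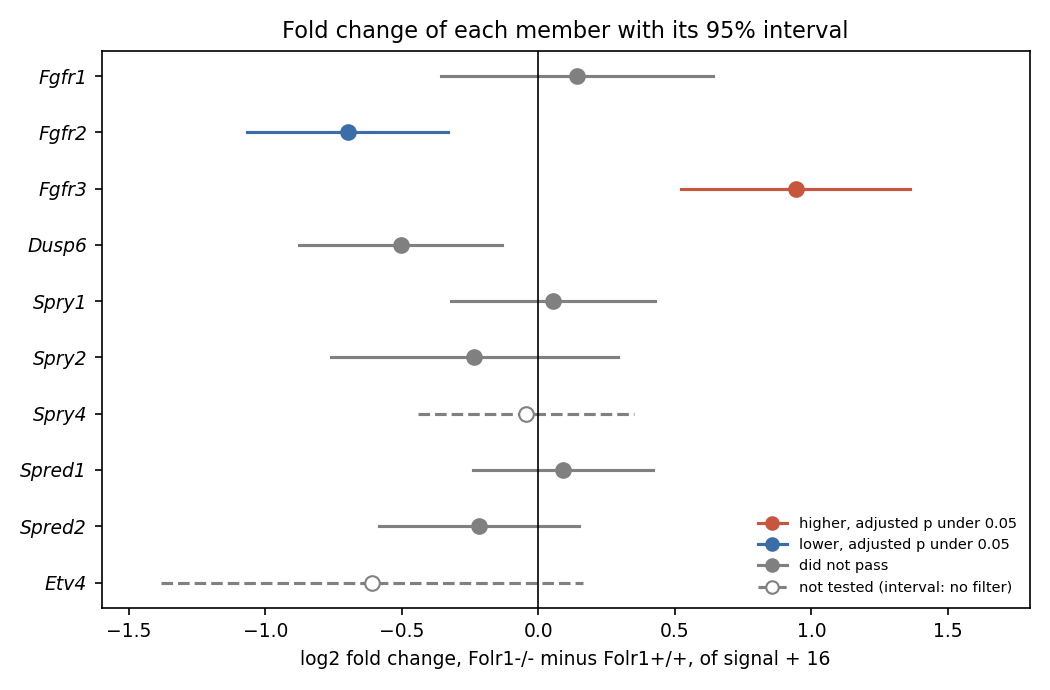
Log2 fold change of signal + 16, Folr1-/- minus Folr1+/+, for each of the 10 genes (points) with its 95% interval (lines); open points with dashed lines are Spry4 and Etv4, whose intervals come from the fit with no filter on dim genes. Fgfr3 (0.94) and Fgfr2 (-0.70) passed, the interval of Dusp6 (-0.88 to -0.13) also lies below 0, and the other 7 intervals cover 0.

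Of the feedback genes, Dusp6 came nearest to the threshold. Its only probe set gave 658, 489 and 555 on the Folr1+/+ arrays and 434 and 354 on the Folr1-/- arrays. The Folr1-/- arrays were the lowest, at 76.6% (replicate 1) and 62.4% (replicate 2) of the Folr1+/+ mean, and the gap from Folr1+/+ replicate 2 to Folr1-/- replicate 1 was narrower than the spread of the Folr1+/+ arrays. The log2 fold change of -0.50 ± 0.17 (SE) had a limma p of 0.0121 and an adjusted p of 0.0681, so Dusp6 did not pass. It passed in 3 of 18 alternatives, without Folr1+/+ replicate 2 (-0.60, adjusted p = 0.0469), with array weights (-0.51, adjusted p = 0.0414) and with the Actb ratio as a covariate (-0.54, adjusted p = 0.0420), in a range of 0.0414 to 0.320. The neural progenitor and somite markers were lower and the endoderm and epithelium markers higher on the same arrays, and their part was not tested.

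**Figure D3:**
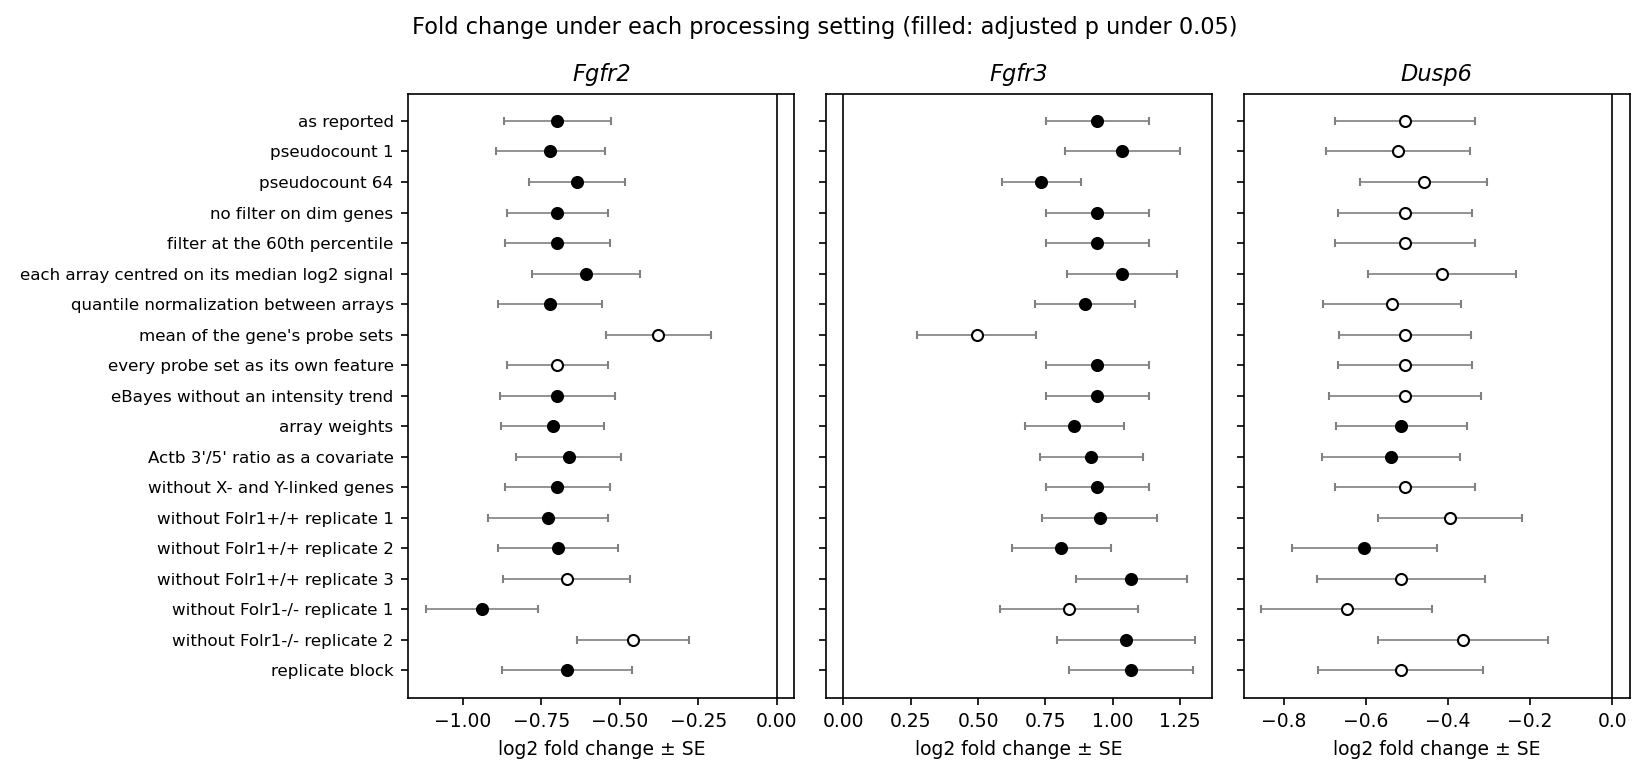
Log2 fold change ± SE of Fgfr2, Fgfr3 and Dusp6 as reported and under each of the 18 alternatives; filled points have an adjusted p under 0.05 and open points do not. Fgfr2 and Dusp6 are below 0 and Fgfr3 above 0 in all 18, while 14, 3 and 16 of these pass for Fgfr2, Dusp6 and Fgfr3.

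The Sprouty proteins bind adaptors near the receptor and hold back RAS activation. Spry1 had signals of 362, 331 and 259.9 on the Folr1+/+ arrays and 332 and 323 on the Folr1-/- arrays. The Folr1-/- arrays nearly coincided and lay within the Folr1+/+ range, with a log2 fold change of 0.054 ± 0.17 (SE, adjusted p = 0.864) and a 95% interval from -0.32 to 0.43. Spry2 had signals of 35.5, 43.9 and 44.2 against 21.9 and 46.0, so the Folr1-/- arrays stood at opposite ends, replicate 1 the lowest and replicate 2 the highest of all 5. Its log2 fold change of -0.23 ± 0.24 (SE, adjusted p = 0.554) turned to 0.12 without Folr1-/- replicate 1 and was -0.59 without replicate 2. The other Spry2 probe set gave 25.1, 26.5 and 21.4 against 22.3 and 18.1, and overlapped too. Spry4 was dim on every array, at 7.94, 6.49 and 2.62 against 3.92 and 5.96, far below the filter, and no direction can be read. A second Spry4 probe set was lower on both Folr1-/- arrays (2.89, 9.11 and 8.21 against 0.918 and 2.04), at signals equally far below the filter.

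The Spred proteins bind neurofibromin and bring it to the membrane, where it switches RAS off. Spred1 had signals of 923, 1068 and 840.4 on the Folr1+/+ arrays and 962 and 1043 on the Folr1-/- arrays. All values of the Folr1-/- group fell within the Folr1+/+ range, and the log2 fold change was 0.091 ± 0.15 (SE, adjusted p = 0.727), with a 95% interval from -0.24 to 0.42. The 2 other Spred1 probe sets gave 196, 172 and 182 against 143 and 176, and 50.9, 56.0 and 49.7 against 55.5 and 59.7. Their log2 fold changes of -0.19 ± 0.15 and 0.11 ± 0.19 (SE) differ in sign, and neither passed. Spred2 had signals of 307, 319 and 326 against 233 and 315, so Folr1-/- replicate 1 was low, at 73.3% of the Folr1+/+ mean, and replicate 2 was at 99.3%. Its log2 fold change of -0.22 ± 0.17 (SE, adjusted p = 0.421) was -0.0094 without Folr1-/- replicate 1 and -0.42 without replicate 2. The second Spred2 probe set was dim and scattered, with 10.7, 26.0 and 4.01 against 3.31 and 14.0.

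Etv4 encodes an ETS factor of the PEA3 group that FGF signalling induces in limb and tail buds. Its single probe set had signals of 38.8, 14.0 and 40.1 on the Folr1+/+ arrays and 21.2 and 7.59 on the Folr1-/- arrays. Folr1-/- replicate 2 was the lowest array, but Folr1+/+ replicate 2 lay below Folr1-/- replicate 1. It missed the filter, and without a filter its log2 fold change was -0.61 ± 0.34 (SE, limma adjusted p = 0.335 over 12393 genes, of which 6.03% passed). The groups overlapped in the chosen probe sets of both Spry4 and Etv4. Among all 4957 genes below the filter they did not overlap in 30.3%, with 8.33% higher and 22.0% lower. The related Etv5 was also under the filter, at 20.0, 21.9 and 22.1 against 16.7 and 18.4.

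The 2 Folr1-/- arrays differed from each other without one order across these genes. Replicate 1 was the lower of the pair for Fgfr1, Spry2, Spry4, Spred1 and Spred2, and replicate 2 for Fgfr2, Fgfr3, Dusp6, Spry1 and Etv4. The gap between them on the log2(signal + 16) scale was 0.71 for Spry2, 0.66 for Etv4, 0.48 for Fgfr2 and 0.41 for Spred2, and 0.28 or less for the other 6 genes. For Spry2, Fgfr2 and Spred2 this exceeded the range of the 3 Folr1+/+ arrays, which was 0.22, 0.12 and 0.083.

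Start-site sequences are shown for the 3 genes whose groups did not overlap, because FGF feedback acts on transcription through ETS factors, which bind around a GGAA core. RefSeq promoter windows of GRCm38.p6 span 250 bases before to 50 after a start, are read on the gene's strand, and were found for 7 of the 10 genes. Capitals mark each GGAA and its complement TTCC. The windows are Dusp6 at chr10:99262981-99263280 (plus strand), Fgfr2 at chr7:130266759-130267058 (minus strand), and Fgfr3 at chr5:33721474-33721773 and chr5:33722056-33722355 (plus strand), which belong to separate annotated starts.
Dusp6: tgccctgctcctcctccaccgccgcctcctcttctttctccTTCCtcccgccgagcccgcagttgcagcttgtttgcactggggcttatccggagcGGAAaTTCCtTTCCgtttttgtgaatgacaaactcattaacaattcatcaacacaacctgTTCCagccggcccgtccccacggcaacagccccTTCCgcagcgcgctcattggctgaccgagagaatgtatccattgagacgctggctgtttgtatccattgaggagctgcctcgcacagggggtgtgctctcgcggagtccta
Fgfr2: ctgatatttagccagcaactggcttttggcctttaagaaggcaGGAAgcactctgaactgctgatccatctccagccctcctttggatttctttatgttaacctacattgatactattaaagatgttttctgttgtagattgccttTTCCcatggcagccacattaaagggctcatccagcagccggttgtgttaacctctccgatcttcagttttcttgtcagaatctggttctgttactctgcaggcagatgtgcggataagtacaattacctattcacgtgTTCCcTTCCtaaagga
Fgfr3, first start: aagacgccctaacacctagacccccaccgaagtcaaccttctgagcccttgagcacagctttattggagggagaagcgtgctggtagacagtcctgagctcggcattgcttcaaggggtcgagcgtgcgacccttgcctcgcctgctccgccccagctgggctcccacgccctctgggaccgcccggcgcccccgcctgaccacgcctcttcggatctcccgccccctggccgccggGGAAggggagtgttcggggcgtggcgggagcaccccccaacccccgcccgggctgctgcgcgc
Fgfr3, second start: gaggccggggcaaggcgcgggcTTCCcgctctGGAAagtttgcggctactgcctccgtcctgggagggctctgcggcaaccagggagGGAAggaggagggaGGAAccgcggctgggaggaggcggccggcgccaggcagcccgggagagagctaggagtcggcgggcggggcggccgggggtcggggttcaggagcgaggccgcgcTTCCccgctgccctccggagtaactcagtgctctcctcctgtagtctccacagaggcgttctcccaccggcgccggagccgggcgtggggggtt
The longer ETS motif CCGGAAG, searched on both strands, was in none of the 8 windows of the 7 genes, while 8.86% of all 32851 windows of this length hold it. The shorter core GGAA, which is part of CCGGAAG and was added after the values were seen, occurred 6 times in the Dusp6 window, 4 times in that of Fgfr2, and once and 5 times in those of Fgfr3. It is in 96.0% of all windows, so nearly every window has it. The GC content was 57.3% for Dusp6, 43.7% for Fgfr2, and 69.7% and 73.0% for Fgfr3.

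Other genes of the pathway were read from 5 lists, with 63 genes tested. Of these 4 rose, 3 fell and 56 did not pass, beside 8.19% higher and 6.79% lower of all tested genes, with a median log2 fold change of -0.083. The groups did not overlap in 26 of the 63, beside 46.7% of all.

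Among 22 FGF family genes on the array, 4 were bright enough to test. None passed in limma, at an adjusted p or at an unadjusted p under 0.05 (median 0.071). Fgf15, made in the neural tube and later in the gut, had signals of 121, 136 and 119 on the Folr1+/+ arrays and 141 and 136 on the Folr1-/- arrays, which overlap (0.13 ± 0.17, SE, adjusted p = 0.651). Fgf3, a ligand of hindbrain and tail, gave 65.8, 65.0 and 68.8 against 73.2 and 70.2, and Fgf9 gave 41.2, 16.6 and 37.9 against 29.0 and 35.8. Fgf3 was slightly higher on both Folr1-/- arrays, with a fold change of 0.087 ± 0.18 (SE, adjusted p = 0.781). Fgf8, the ligand of the midbrain-hindbrain boundary and the limb ridge, was dim throughout, at 1.70 to 5.55 over all 5 arrays.

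The co-receptors and other receptors had 3 higher, 1 lower and 12 not passing of 16 tested (median -0.085). Klb, the co-receptor of endocrine FGFs in liver, had signals of 35.9, 37.1 and 35.2 on the Folr1+/+ arrays and 160.2 and 98.7 on the Folr1-/- arrays, a log2 fold change of 1.45 ± 0.22 (SE, adjusted p = 0.000926). A second, very dim Klb probe set gave 3.87, 4.67 and 2.28 against 2.34 and 1.97, which overlap (-0.11). Fgfr4, the receptor that Klb pairs with in liver, gave 35.4, 31.8 and 38.7 against 70.8 and 71.2 (0.76 ± 0.19, SE, adjusted p = 0.0195). With a pseudocount of 64 in place of 16, the fold changes were 0.93 for Klb and 0.44 for Fgfr4. Both transcripts were higher on both Folr1-/- arrays, as were the endoderm markers, while neural progenitor and somite markers were lower. The part of these markers was not tested. The Fgfr4 call was lost without either Folr1-/- replicate (0.77, adjusted p = 0.142, and 0.76, adjusted p = 0.112), with no filter (adjusted p = 0.0633) and in the fit of every probe set (adjusted p = 0.0838), over a range of 0.0108 to 0.142. Its 4 other probe sets, at means of 3.88 to 29.2, had fold changes from -0.057 to -0.015.

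The syndecans carry heparan sulphate chains that hold FGFs near the receptor. Sdc4 had signals of 152, 129 and 137 on the Folr1+/+ arrays and 249.6 and 202 on the Folr1-/- arrays (0.64 ± 0.17, SE, adjusted p = 0.0277). Sdc3, a syndecan of the nervous system and limb, gave 152, 138 and 155 against 70.5 and 78.9 (-0.86 ± 0.17, SE, adjusted p = 0.00595). The groups were apart in both genes, in opposite directions. The second Sdc4 probe set went the same way and further, at 27.4, 19.4 and 50.6 against 148 and 119, and with the mean of its probe sets the fold change was 1.15. The Sdc4 call was lost in 7 of 18 alternatives, among them those without Folr1+/+ replicate 2 (0.59), Folr1+/+ replicate 3 (0.63), Folr1-/- replicate 1 (0.49) and Folr1-/- replicate 2 (0.78). The adjusted p of the lost calls ran from 0.0545 to 0.246, and that of all 18 from 0.00426 to 0.246. Of the 2 other Sdc3 probe sets, one overlapped (29.7, 72.0 and 63.6 against 41.1 and 13.7) and one was very dim (9.04, 3.94 and 4.05 against 3.02 and 3.47). The Sdc3 call was lost in 2, without Folr1-/- replicate 1 (-0.79, adjusted p = 0.0773) and with the mean of its probe sets (-0.58, adjusted p = 0.0506), over a range of 0.00284 to 0.0773.

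Adaptors and RAS-ERK transducers had 1 lower, none higher and 15 not passing of 16 tested (median -0.099). The one that fell was the X-linked Rps6ka3, a kinase that ERK activates, with signals of 340, 233 and 281 on the Folr1+/+ arrays and 117 and 143 on the Folr1-/- arrays (-1.03 ± 0.19, SE, adjusted p = 0.00354). A second probe set was also lower on both Folr1-/- arrays, at 232, 248 and 254 against 116 and 96.8. The third was dim, at 7.65, 22.0 and 7.42 against 7.99 and 8.12, and its groups overlapped (-0.20, adjusted p = 0.719 in the fit of every probe set). The call was lost without Folr1-/- replicate 1 (-0.90, adjusted p = 0.0627, range 0.000414 to 0.0627), and Xist differed between the same arrays.

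Beside the members, other ERK feedback genes had 1 higher, none lower and 10 not passing of 11 tested (median -0.16). The X-linked Dusp9, which encodes a cytoplasmic phosphatase of ERK that the placenta needs, had signals of 214, 156 and 143 on the Folr1+/+ arrays and 769 and 626 on the Folr1-/- arrays. Both Folr1-/- arrays were far above the others, with a log2 fold change of 1.94 ± 0.19 (SE, adjusted p = 5.43e-05) that passed in all 17 alternatives in which X-linked genes were kept. Its 2 other probe sets gave fold changes of 1.90 and 1.76 on the log2 scale. The probes of the chosen set can match further transcripts, as its x_at name says. Endoderm markers and Xist were higher on the same arrays. So were the 3 trophoblast and decidua markers tested, and the sum over 8 genes was 225 to 251 against 570.3 and 479. Of the 3, Prl8a2 had 13.6 to 23.2 on the Folr1+/+ arrays against 143 and 34.6. Its Folr1+/+ signals were under the filter's 30.0, so it passed the filter through the Folr1-/- arrays. The rest of the 8 were below the filter, and their groups overlapped, with means differing in both directions. Neural progenitor and somite markers were lower on the Folr1-/- arrays. The part of all these was not tested.

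Other ETS factors and early ERK target genes had 1 lower, none higher and 15 not passing of 16 tested (median -0.16). Egr2, a zinc finger factor of the hindbrain segments, fell, with signals of 115, 87.9 and 73.5 on the Folr1+/+ arrays and 29.5 and 39.5 on the Folr1-/- arrays (-1.09 ± 0.21, SE, adjusted p = 0.00577). The groups were apart, and the second Egr2 probe set went the same way, at 44.9, 58.8 and 40.4 against 2.14 and 21.8. The call was lost without Folr1-/- replicate 1 (-0.94, adjusted p = 0.0921, range 0.00185 to 0.0921), and with a pseudocount of 64 the fold change was -0.66. Neural progenitor markers were lower and endoderm and epithelium markers higher on the same arrays, and their part was not tested.

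**Figure D4:**
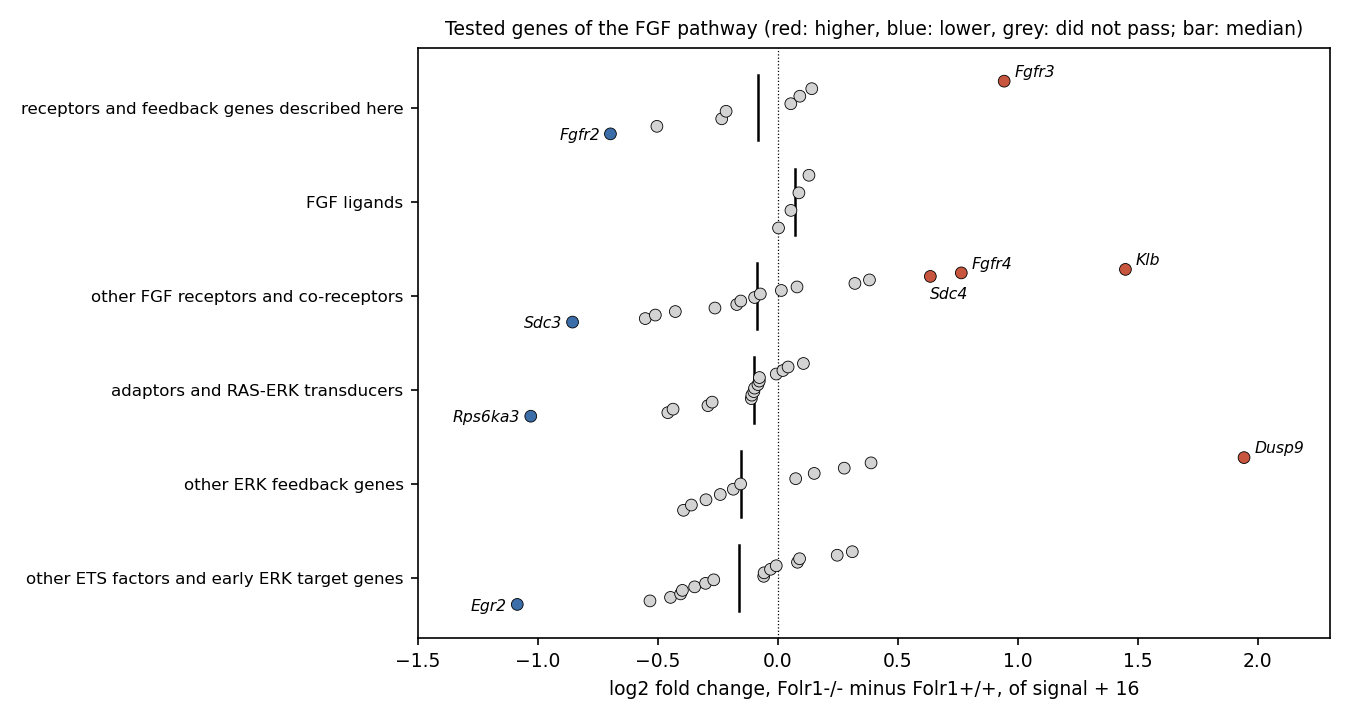
Log2 fold change of signal + 16, Folr1-/- minus Folr1+/+, for the tested receptors and feedback genes and for the 63 tested genes of the 5 other lists, 1 point per gene; red points rose, blue points fell, grey points did not pass, and vertical bars are list medians. Dusp9 (1.94) and Klb (1.45) lie farthest to the right and Egr2 (-1.09) and Rps6ka3 (-1.03) farthest to the left.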

How the data were processed

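By their titles 3 arrays are Folr1+/+ and 2 are Folr1-/-, each with 1 whole-embryo RNA sample that was amplified in 2 rounds, which favours 3' ends. The authors deposited a linear MAS5 signal intensity for each probe set, as the submitters' processing notes name MAS5, with no version given. Each array had been scaled to a trimmed mean signal of 150.1, which was kept. Detection calls were not used here, and the small number of arrays limits precision.

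Of 22690 probe sets, 64 were controls, 20380 carried 1 symbol, 691 more than 1, and 1555 had no entry in the platform table. A filter at the 40th percentile of genes, by mean log2(signal + 16), kept 7436 of 12393. Fold changes are differences of log2(signal + 16), which understates changes of dim genes. They were tested with limma 3.58.1 in R 4.3.3 (lmFit, eBayes with an intensity trend, 3 residual degrees of freedom) and Benjamini-Hochberg adjustment over all tested genes, threshold 0.05. The code was tested on simulated arrays.

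The members and lists were chosen with earlier results of these data known. The text names all members, up to 6 genes past the threshold in each pathway list, and, where a list has none, up to 3 by smallest unadjusted p. Fgf8, Etv5, the single tissue markers and the genes under other observations were named after their values were seen. Proteins were not compared here. Alternatives were the pseudocount, filter, scaling, probe set rule, intensity trend, array weights, Actb ratio, X- and Y-linked genes, each array left out, and the replicate number as a block.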

Additional observations from a re-analysis of the deposited data

How the results depend on the processing

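Over 18 alternatives, Fgfr2 and Dusp6 stayed lower and Fgfr3 higher (ranges -0.94 to -0.38, -0.65 to -0.36 and 0.50 to 1.07). The number of receptors and feedback genes that changed, 2 as reported, was 0 when probe sets of a gene were averaged (limma, with 1 at an unadjusted p under 0.05) and 1 in the fit of every probe set, and 1 to 3 when an array was left out. The mean takes in the dim second probe sets of Fgfr2 and Fgfr3. The pathway count of 7 was 4 with that mean, 4 with the filter at the 60th percentile, where 38 genes were tested, and 2 to 8 when an array was left out. The count of all changed genes, 1114, was 369 to 1007 when an array was left out, with 636 when this was Folr1+/+ replicate 3, 369 for Folr1-/- replicate 1 and 664 for Folr1-/- replicate 2. The block ended the Sdc4 call (0.63, adjusted p = 0.0694). Signs turned, with no call on either side, for Fgfr1 with the mean of its probe sets (-0.070) and without Folr1+/+ replicate 2 (-0.064), for Spry1 without Folr1+/+ replicate 3 and with the replicate block (-0.077 each), and for Spry2 without Folr1-/- replicate 1 (0.12). Over the arrays left out in turn, these genes ranged from -0.064 to 0.33, -0.077 to 0.15 and -0.59 to 0.12. What turned these signs was not tested. Folr1+/+ replicate 3 is the only array of its number, so the block takes it out. Fold changes with the block therefore equal those without that array, and the 2 turns of Spry1 are not separate. With the replicate block, 899 genes, 6 pathway genes and 2 receptors and feedback genes changed. The labels state no pairing by replicate number. Deviations of same-numbered arrays from their group means correlated at 0.019 and -0.056 over genes. These values cannot settle whether the numbers mark pairs, because the deviations of 2 Folr1-/- arrays mirror each other. Dim signals leave Spry4, Etv4 and most FGF family genes without a test. Spry2 and Egr2 fell below the filter at the 60th percentile, and Rps6ka3 and Dusp9 left with the X-linked genes. Each of these was thus tested in 17 of the 18 alternatives.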

Other observations

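Of the 30 pathway genes below the filter, and so untested, the groups overlapped in 24, and 6 were lower on both Folr1-/- arrays than on any Folr1+/+ array: Fgf12, Fgf17, Fgf18, Fgfbp1, Dusp14 and Etv5. That is 20% of the 30, near the 22.0% of all 4957 genes below the filter that were lower without overlap. None of the 30 was higher without overlap, beside 8.33% of all genes below the filter. The 3 genes that follow were chosen after their values were seen. Fgf17, a ligand of the midbrain-hindbrain boundary, had signals of 23.2, 26.9 and 30.9 on the Folr1+/+ arrays and 12.4 and 15.99 on the Folr1-/- arrays, and Fgf18, of the same ligand subfamily, had 35.9, 24.3 and 22.9 against 6.68 and 16.4. Dusp14, a phosphatase gene, had 24.9, 26.4 and 22.8 against 9.44 and 13.2. Without a filter, none of the 3 passed in limma (adjusted p = 0.197, 0.159 and 0.134). The summed signal of 9 markers of the midbrain-hindbrain boundary and forebrain was 361 to 459 in the Folr1+/+ arrays and 156 to 192 in the Folr1-/- arrays. That of 13 tail bud and presomitic markers was 1119 to 1166 against 1068 and 1102, and that of 14 limb bud and pharyngeal arch markers was 733 to 871 against 810.3 and 778. The groups overlapped for the limb and arch sum and lay close together for the tail bud sum, but single markers of both lists differed in both directions. Of 10 tail bud markers tested, 2 rose and 3 fell, and of 7 limb and arch markers tested, 1 rose and 2 fell. The groups did not overlap in 7 of the 10 (2 higher, 5 lower) and in all 7 limb and arch markers tested (3 higher, 4 lower), beside 46.7% of all tested genes. Of the boundary and forebrain markers, 4 were tested and 1 fell. Primitive erythroid markers summed to 5531 to 6489 against 337 and 809, and 6 of 9 tested fell.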
